A study of Homo sapiens with 12 samples.

Results

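The proteasome subunit transcripts of Ewing sarcoma cells were followed after transcription was stopped. The members were all gene symbols that began with PSMA to PSMG followed by a number and held no hyphen, and 49 of the 26334 symbols in the count table met this rule: 8 PSMA, 11 PSMB, 7 PSMC, 14 PSMD and 9 regulator (PSME, PSMF and PSMG) genes. A mean of at least 10 counts per library was reached by 46 of them. The other 3 were PSMA8, a testis form of an alpha subunit, with 0 counts in all 12 libraries, PSMB11, the thymus form of a catalytic subunit, with a mean of 0.08 counts, and PSMB9, an interferon-inducible catalytic subunit, with a mean of 0.17 counts. The symbol rule also took in PSMC3IP, a recombination factor that is named for binding PSMC3 and is not a proteasome subunit, so 48 of the 49 symbols named proteasome subunits, activators, inhibitor or assembly chaperones.

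The cells were the line shA673-1c, made from A673, a human Ewing sarcoma line that carries the EWSR1-FLI1 fusion, and the labels give the one derivative line for every library. All cultures were kept under blasticidin and zeocin. Actinomycin D (ActD), which blocks RNA synthesis by binding DNA, was given at 5 µM for 0, 1, 2 or 4 h, with 3 biological replicates at each time, and poly(A) RNA was sequenced in 12 stranded libraries. No vehicle-only time course was analysed here, so a change over time and a change caused by the drug cannot be told apart.

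The 26S proteasome breaks down proteins tagged with ubiquitin. Its 20S core is a barrel of outer alpha rings (PSMA genes) and inner beta rings (PSMB genes), and PSMB5, PSMB6 and PSMB7 carry the active sites that cut the substrate. The 19S cap is made of a ring of ATPases (PSMC genes) that unfold the substrate, base subunits that bind ubiquitin, and a lid (both PSMD genes) that removes the ubiquitin chain. The chaperones PSMG1 to PSMG4 build the core, PSMD5, PSMD9 and PSMD10 build the base, and neither set stays in the finished particle. PSME genes encode other caps that open the core, and PSMF1 an inhibitor of it. After ActD no new transcripts are made, so the level of a transcript over time follows its decay, but counts scaled within each library show this only relative to the other transcripts: a slope above 0 marks a transcript lost more slowly than the reference used for scaling, or gained.

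Library totals ranged from 9147018 to 11194705 counts, and the members took 0.863% to 1.00% of them. Of 11 Ewing sarcoma markers, 10 were at a mean of 10 counts or more, and CD99 was listed at 0 in every library. None of the 5 endothelial and none of the 5 leukocyte markers reached 10 counts, while KRT8 and KRT18 of 5 epithelial and COL1A1 and COL1A2 of 5 fibroblast markers did. MYC, a transcript known for rapid decay, fell by 4.00 on the log2 scale from 0 to 4 h (SE 0.215, adjusted p = 2.92e-09 with edgeR).

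In a straight-line fit of log2 level on hours over all 12 libraries, scaled by TMM (trimmed mean of M-values), 32 of the 46 tested members rose and 6 fell at an adjusted p below 0.05 in edgeR's quasi-likelihood test, and 8 did not pass. Over the 12032 genes tested, 30.7% rose and 32.1% fell. The median slope of the members was 0.078 log2 units per hour against 0.0093 for all genes tested, which over the course gave a median of 0.26 at 4 h for members and 0.028 for all genes. In the direct comparison of 4 h with 0 h, 28 members were higher and 6 lower (28.7% and 31.6% of all genes). When the fit held replicate as a block, 33 were higher and 6 lower (36.8% and 36.0% of all genes), and PSMA5, PSMC3IP, PSMD1, PSME3 and PSME4 were those gained. Within each replicate the median member slope was 0.079, 0.074 and 0.071. Fewer calls were made without the 4 h libraries, where 16 members rose and 0 fell in edgeR (12.1% and 18.3% of all genes tested). The median member slope was 0.078 there too. That fit had fewer libraries and a shorter course, so whether the calls rest on the last time point itself was not tested. In bulk RNA, fewer cells and less RNA per cell cannot be told apart.

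The direction of these slopes depended on the scaling. Scaled to library totals, 21 members rose and 10 fell (18.7% and 39.1% of all genes), with a median of 0.039. Scaled to GAPDH plus ACTB, whose own TMM slopes were 0.152 and 0.122, no member rose and 26 fell (0.931% and 64.2% of all genes), with a median of -0.060, and the median of all genes moved from 0.0093 to -0.128. The median member slope lay 0.069 above the median of all genes, and 36 of the 46 members were above that median. Another scaling shifts every gene by nearly the same amount, so this distance and this count are nearly fixed whichever scaling is used and give no separate support. The words rose and fell are used below for TMM slopes. The 6 members that fell did so at an adjusted p below 0.05 in edgeR under all 4 scalings. This gives no separate support either, since no scaling run moved the slopes clearly upward. The median of all genes was 0.0093 with the size factors of DESeq2, as with TMM, and -0.030 with library totals.

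**Figure D1:**
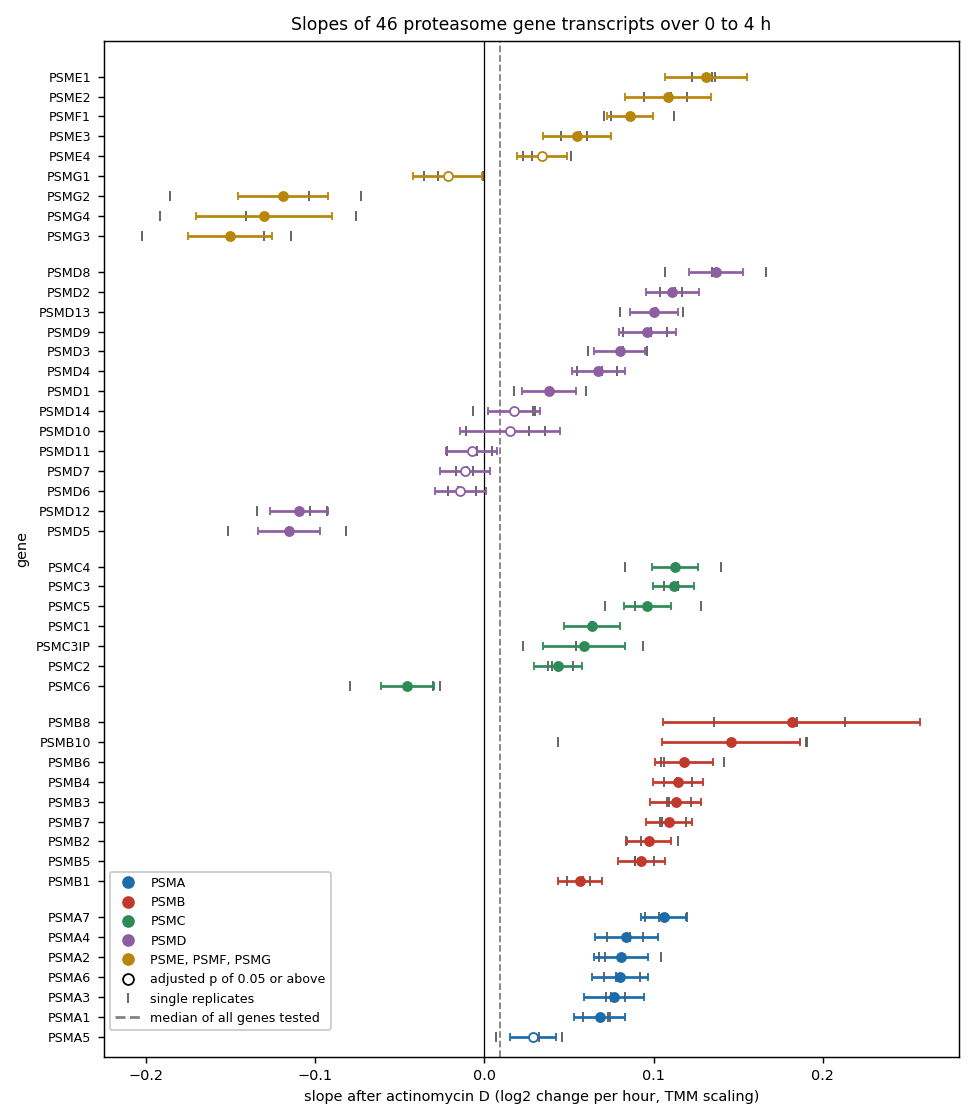
Slope of each of 46 proteasome transcripts on time after ActD (x axis, log2 change per hour, TMM scaling), grouped by family; points are edgeR estimates with SE, ticks the slopes of the 3 single replicates, filled points an adjusted p below 0.05, and the dashed line the median of all genes tested. All 9 PSMB points lie above the dashed line, and PSMG2, PSMG3, PSMG4, PSMD5, PSMD12 and PSMC6 lie below 0 with all 3 replicates; scaled to GAPDH plus ACTB the family medians all lie below 0.

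**Figure D2:**
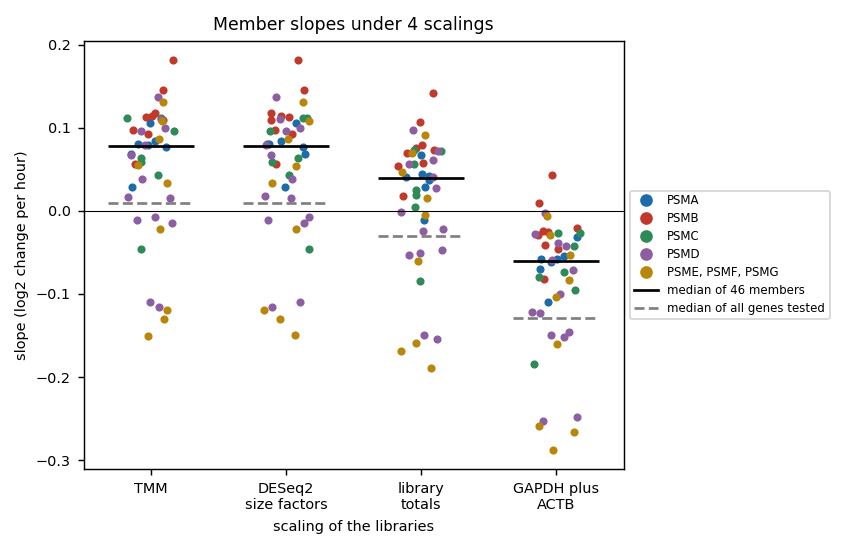
The 46 member slopes (y axis, log2 change per hour) under 4 ways of scaling the libraries, each point a member coloured by family, with solid lines for the member median and dashed lines for the median of all genes tested. The cloud moves from a median of 0.078 with TMM to -0.060 with GAPDH plus ACTB, and the dashed line moves with it, since a scaling shifts all genes nearly alike.

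Under TMM the transcripts of the core assembly chaperones PSMG1 to PSMG4 mostly fell and those of the core they build mostly rose. PSMG2, PSMG3 and PSMG4 fell and PSMG1 did not pass, for a median slope of -0.125 over the 4 genes (-0.262 scaled to GAPDH plus ACTB). Of the 14 genes of the standard alpha and beta rings, 13 rose and none fell, with a median slope of 0.088 (-0.050 scaled to GAPDH plus ACTB, where 5 fell and none rose). Over the 7 assembly chaperones of core and base that met the symbol rule, 4 fell and 1 rose, with a median of -0.115. Outside the rule, the core maturation protein POMP rose (slope 0.068), and the base assembly chaperone PAAF1 did not pass (slope 0.048). Among 31 structural subunits of the 26S particle 2 fell and 24 rose, with a median of 0.080. These counts describe the lists, and no test of one list against the other was made.

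PSMG3 had the lowest slope of all members. Its level as CPM (counts scaled to a common library size with TMM) in replicates 1 to 3 were 27.2, 34.7 and 30.6 at 0 h, 26.3, 30.7 and 29.0 at 1 h, 26.7, 27.1 and 24.6 at 2 h, and 19.7, 19.8 and 21.7 at 4 h. All 4 h libraries lay below all earlier ones, and the slope was -0.150 log2 units per hour (SE 0.0246, adjusted p = 5.46e-05 with edgeR). Its binding partner PSMG4 is the least abundant of the 4, at 12.2, 13.6 and 11.7 CPM at 0 h and 6.75, 9.87 and 8.18 CPM at 4 h. PSMG4 fell by 0.130 per hour (SE 0.0404, adjusted p = 0.0101 with edgeR), and the groups did not overlap. This call rested on few counts: without replicate 1 its adjusted p was 0.0881, without replicate 3 it was 0.0512, and without the 0 h libraries it was 0.227.

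PSMG1 and PSMG2 form the other heterodimer that starts the alpha ring, and their transcripts parted. PSMG2 went from 41.9, 47.2 and 46.7 CPM at 0 h to 33.9, 35.2 and 26.9 CPM at 4 h, a slope of -0.119 (SE 0.0266, adjusted p = 0.000937 with edgeR). PSMG1 stood at 67.2, 76.6 and 74.1 CPM at 0 h and at 65.5, 70.5 and 66.9 CPM at 4 h, where the groups overlapped, and its slope was -0.022 (SE 0.0205, adjusted p = 0.373 with edgeR). The log2 ratio of PSMG1 to PSMG2 counts, which no scaling of the libraries can change, went from 0.68 ± 0.017 at 0 h through 0.77 ± 0.061 and 0.83 ± 0.063 to 1.09 ± 0.197 at 4 h (SD, n = 3). Its slope was 0.101 per hour in a two-sided exact permutation test over 369600 arrangements of the 12 libraries (p = 2.706e-05, adjusted p = 0.000135 over 5 pairs), and it was above 0 in 3 of 3 replicates (0.071, 0.077 and 0.155). Permuted within replicate numbers the adjusted p was 0.00145, and without the 4 h libraries it was 0.0595. PSMG3 and PSMG4 gave no such result: their ratio had a slope of -0.017 (adjusted p = 0.696, exact permutation test), and the replicate slopes ran from -0.136 to 0.073.

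**Figure D3:**
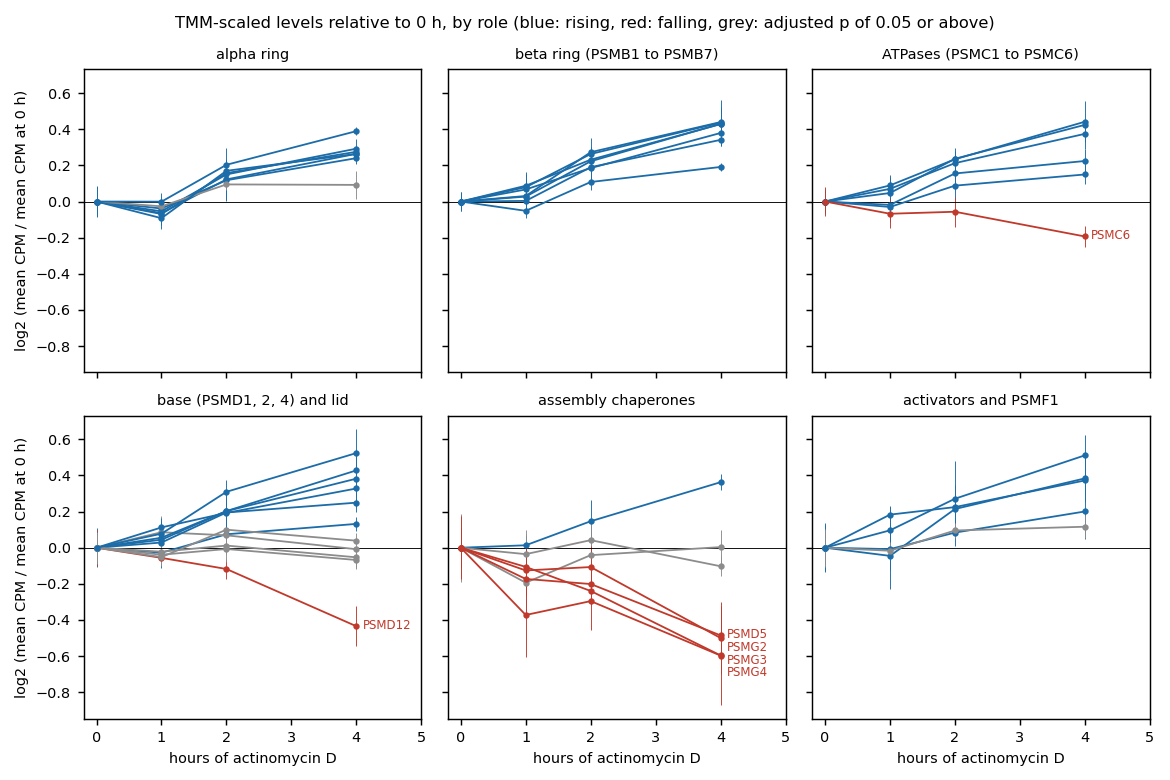
Mean TMM-scaled CPM of each gene relative to its own mean at 0 h (y axis, log2) at 0, 1, 2 and 4 h of ActD (x axis), in 6 panels by role; bars are the SD over 3 replicates on the log2 scale, and blue, red and grey mark rising, falling and uncalled slopes. PSMD5 and the core chaperones other than PSMG1 end between -0.48 and -0.60, whereas all 7 beta ring genes end above 0. Scaled to GAPDH plus ACTB, the beta ring slopes are all below 0, and only that of PSMB1 passed.

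The base chaperones did not move as a set. PSMD5, which holds an ATPase module before the base closes, went from 86.3, 92.0 and 94.2 CPM at 0 h to 64.1, 70.7 and 60.0 CPM at 4 h and fell by 0.115 per hour (SE 0.0181, adjusted p = 3.53e-05 with edgeR). PSMD9 went from 50.6, 52.4 and 52.1 to 67.7, 67.8 and 64.1 CPM, a slope of 0.096 (SE 0.0170, adjusted p = 0.000111 with edgeR) that became -0.042 when scaled to GAPDH plus ACTB. PSMD10, also called gankyrin, was at 38.4, 43.1 and 49.7 CPM at 0 h and at 40.8, 44.1 and 46.6 CPM at 4 h (slope 0.015, SE 0.0295, adjusted p = 0.677 with edgeR). So 1 of the 3 fell, 1 rose and 1 stayed inside its spread. An antisense gene at the same locus, PSMD5-AS1, held 10.5% as many counts as PSMD5 and fell by 0.162 per hour (SE 0.0467, adjusted p = 0.00619 with edgeR). The libraries were stranded, but whether counting used the strand is not given in the sources used here, so the share of PSMD5 counts that came from PSMD5-AS1 was not tested.

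Among the structural subunits, PSMD12 and PSMC6 were the exceptions that fell. PSMD12, a scaffold subunit of the lid, was measured at 158, 181 and 166 CPM at 0 h, 162, 164 and 160 CPM at 1 h, 158, 159 and 149 CPM at 2 h, and 124, 134 and 116 CPM at 4 h. The 4 h libraries lay below all others, and the slope was -0.110 (SE 0.0170, adjusted p = 3.22e-05 with edgeR). A departure from a straight line did not pass (adjusted p = 0.770, and 0.134 with the replicate block, both with edgeR). PSMC6, 1 of the 6 ATPases, went from 155, 156 and 171 CPM to 140, 147 and 135 CPM, with a slope of -0.045 (SE 0.0155, adjusted p = 0.0172 with edgeR). In edgeR its call was lost without replicate 3 (adjusted p = 0.0848 from the fit across all genes) and without the 0 h libraries (adjusted p = 0.0625). Read as exponential loss, the 6 falling members had TMM half-lives of 6.65 h for PSMG3 to 22.0 h for PSMC6, and 3.47 h to 5.43 h for the same genes scaled to GAPDH plus ACTB, so the rates are relative to the scaling.

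Under TMM all 9 tested PSMB genes rose, with slopes of 0.056 to 0.182 and a median of 0.113, 8 of them were higher at 4 h, and scaled to GAPDH plus ACTB the median was -0.025 with 1 gene falling. PSMB5, which carries the chymotrypsin-like site, went from 351, 349 and 360 CPM at 0 h to 458, 437 and 448 CPM at 4 h (slope 0.093, SE 0.0137, adjusted p = 1.96e-05 with edgeR). PSMB6, the caspase-like subunit, had a slope of 0.118 (SE 0.0173) and PSMB7, the trypsin-like subunit, of 0.109 (SE 0.0137), so the 3 active-site genes lay within 0.0253 of each other. PSMB1 had the lowest slope of the ring at 0.056 and PSMB4 the highest of the genes without an active site at 0.114.

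The immunoproteasome subunits, which replace the 3 active-site subunits after interferon, were scarce. PSMB9 was listed at 0 in the 0 h and 4 h libraries. PSMB8 had 0.885, 1.64 and 1.42 CPM at 0 h and 1.78, 2.42 and 1.79 CPM at 4 h, and its slope of 0.182 was the highest of all members but also the least precise (SE 0.0761, adjusted p = 0.0473 with edgeR), and the call was lost when any 1 replicate was left out, with adjusted p-values from 0.0887 to 0.168, and in DESeq2 (adjusted p = 0.0999). PSMB10 went from 10.6, 8.10 and 11.5 CPM to 11.5, 13.8 and 18.2 CPM, a slope of 0.146 (SE 0.0409, adjusted p = 0.00530 with edgeR) that ranged from 0.043 to 0.191 among replicates. In edgeR this call was lost without replicate 2 (adjusted p = 0.0674) and without the 4 h libraries (adjusted p = 0.723). Against the constitutive partner no difference passed: the slope of the PSMB8 to PSMB5 ratio was 0.087 (adjusted p = 0.423, exact permutation test), and that of PSMB10 to PSMB7 was 0.032 (adjusted p = 0.673, exact permutation test), with replicate slopes of -0.074, 0.086 and 0.085.

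In the alpha ring 6 of 7 genes rose, with a median slope of 0.080 that became -0.058 when scaled to GAPDH plus ACTB. PSMA7 had the highest, 0.106 (SE 0.0133), from 328, 300 and 308 CPM at 0 h to 414, 410 and 402 CPM at 4 h. PSMA5 was the lowest and did not pass (slope 0.029, SE 0.0135, adjusted p = 0.0745 with edgeR), with 197, 201 and 198 CPM at 0 h against 215, 221 and 200 CPM at 4 h. With the replicate number as a block, PSMA5 passed at an adjusted p of 0.0377 in edgeR, which made 7 of 7. PSMA1, next lowest, had a slope of 0.068, and PSMA4, next highest, 0.084.

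Whether alpha ring transcripts were called as departing from a straight line depended on the fit. PSMA6 stood at 182, 191 and 190 CPM at 0 h, at 177, 174 and 178 CPM at 1 h, at 207, 208 and 219 CPM at 2 h and at 228, 227 and 222 CPM at 4 h, so the 1 h libraries were the lowest and the gain came later. In the unblocked fit no member departed from a straight line (2.7% of all genes did), 2 did at an unadjusted p below 0.05, and DESeq2 called 1. With the replicate block 8 members departed at an adjusted p below 0.05 in edgeR: PSMA2, PSMA3, PSMA4, PSMA6 and PSMA7, with PSMB1, PSMD10 and PSMD14, against 17.2% of all genes, so the count over all members is near the background. Among the 7 alpha ring genes 5 departed with the block, and this share was not tested against the other members. For PSMA6 the adjusted p of the departure moved from 0.0855 to 0.000610 in edgeR. Its 1 h level did not differ from 0 h past the test (adjusted p = 0.431, and 0.0859 with the block, both with edgeR). PSMA7 averaged 312 CPM at both 0 h and 1 h.

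At 1 h little had moved. No member was lower or higher than at 0 h in edgeR without the block, where 2.24% of all genes were lower and 0.349% higher, 3 members had an unadjusted p below 0.05, and DESeq2 called none. With the replicate block 3 were lower (10.5% of all genes) and 2 higher (6.18% of all genes). The lower ones were PSMG4, which fell by 0.363 (adjusted p = 0.0435 with edgeR), PSMD10, which fell by 0.193 (adjusted p = 0.0347 with edgeR) and PSMD5, which fell by 0.174 (adjusted p = 0.0299 with edgeR). Neither count exceeded the share of all genes. PSMF1 was higher by 0.183 (adjusted p = 0.00334 with edgeR) and PSMD3, a lid subunit, by 0.112 (adjusted p = 0.0437 with edgeR). This comparison and that of 4 h share the 0 h libraries.

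Of the 6 ATPases 5 rose (median slope 0.080, and -0.058 with GAPDH plus ACTB). PSMC3 was measured at 542, 531 and 541 CPM at 0 h and 736, 722 and 709 CPM at 4 h, a slope of 0.112 (SE 0.0121, adjusted p = 6.53e-07 with edgeR), and PSMC4 had 0.113 (SE 0.0137). PSMC2 had a slope of 0.043 and PSMC6 fell, and scaled to GAPDH plus ACTB the slopes of both were below 0. PSMC3IP, the member that is no subunit, had a slope of 0.059 (adjusted p = 0.0419 with edgeR). That call was lost when any 1 replicate was left out (adjusted p from 0.0513 to 0.270 with edgeR) and without the count filter (adjusted p = 0.0875 with edgeR). Without this gene 31 members rose and 6 fell.

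Lid transcripts went in both directions. Of its 8 PSMD genes 3 rose, 1 fell and 4 did not pass, with a median slope of 0.0049 close to that of all genes (-0.134 with GAPDH plus ACTB). PSMD8 had the highest slope of the family, 0.137 (SE 0.0159, adjusted p = 1.48e-06 with edgeR), from 233, 234 and 233 CPM to 367, 333 and 306 CPM. PSMD14, the deubiquitinase of the lid, was at 307, 314 and 328 CPM at 0 h and 331, 331 and 314 CPM at 4 h and did not pass (slope 0.017, adjusted p = 0.339 with edgeR). PSMD6, PSMD7 and PSMD11 had slopes of -0.014, -0.011 and -0.0076, none past the test. Of the base subunits, PSMD2, a scaffold that receives substrate carriers, rose by 0.111 (SE 0.0155), and the ubiquitin receptor PSMD4 by 0.067 (SE 0.0157), while PSMD1 at 0.038 passed narrowly (adjusted p = 0.0483 with edgeR) and did not pass when replicate 1 or 2 was left out. Scaled to GAPDH plus ACTB all 3 base slopes were below 0, and that of PSMD2 did not pass (adjusted p = 0.184 with edgeR).

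Under TMM 3 of the 4 PSME genes and PSMF1 rose. PSME1 and PSME2 encode the interlocking subunits of the PA28 alpha-beta activator. PSME1 went from 54.1, 61.7 and 65.0 CPM to 78.4, 88.7 and 90.7 CPM (slope 0.131, SE 0.0244) and PSME2 had a slope of 0.108 (SE 0.0253), and their ratio did not change past the test (slope -0.022, adjusted p = 0.423, exact permutation test). PSME3, the nuclear PA28 gamma, had 0.055 (adjusted p = 0.0247 with edgeR), with adjusted p-values of 0.119 and 0.0701 without replicate 1 or 2. PSME4, which encodes PA200, had 0.034 (adjusted p = 0.0545, and 0.00943 with the replicate block, both with edgeR). PSMF1 rose by 0.086 (SE 0.0138, adjusted p = 4.42e-05 with edgeR). Scaled to GAPDH plus ACTB the slopes of all 5 were below 0. Those of PSME1 and PSME2 did not pass there (adjusted p = 0.881 and 0.493 with edgeR).

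Before ActD the members differed widely in level. Per kilobase of the GENCODE 44 canonical transcript, the 0 h CPM ranged from 1.17 ± 0.346 for PSMB8 and 10.3 ± 1.79 for PSMB10 to 484 ± 18.4 for PSMB4 (SD, n = 3). Assembly chaperones spanned 15.9 for PSMG4 to 42.3 for PSMG2, with a median of 26.9, below the median of the beta ring at 255, of the alpha ring at 140, of the ATPases at 107 and of the lid at 78.9. Canonical transcripts with a long 3′ end lowered some values, since PSMB2 had 62.9 per kilobase of transcript and 462 per kilobase of coding sequence. Per kilobase of coding sequence the chaperones (33.9 to 84.3) still lay below every beta ring gene (120.6 to 561) and every alpha ring gene (196 to 419). They overlapped the ATPases and the lid, where PSMC1 had 82.3 and PSMD6 58.8. The activators PSME1 (80.7), PSME2 (78.5) and PSME4 (35.2) also lay inside the chaperone range, while PSME3 (224) and PSMF1 (133) lay above it. Per kilobase of transcript PSMC1 (24.7), PSMD12 (38.6) and PSME4 (26.8) lay inside the chaperone range and PSMF1 (13.3) below it. The other PSME genes lay above it. Within the chaperones, PSMG1 and PSMG2 differed by less than their SDs (41.4 ± 2.78 and 42.3 ± 2.73 CPM per kilobase of transcript).

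The falling and rising members were next compared for features the rule did not use. Over the 46 members Spearman's rho between slope and transcript GC content was 0.589, with 3′ UTR length -0.437 and with transcript length -0.332, and over 10827 annotated coding genes the same values were 0.272, -0.266 and -0.249. These are descriptions across genes, which are not independent and share the same 12 libraries. Members were short: their median canonical transcript was 1494 bases with a 3′ UTR of 352, against 3535 and 1416 bases for all tested coding genes. The pentamer ATTTA, the core of AU-rich elements known to attract mRNA decay factors, was searched on the transcript strand of the 3′ UTR. It was found in 24 of 46 members (52.2%), in 75.0% of all tested coding genes, in 3 of the 6 falling members and in 14 of the 32 rising ones. As a description, Spearman's rho between slope and the number of ATTTA copies was -0.324 over the members and -0.305 over the annotated coding genes. PSMG2, PSMG3 and PSMG4 held no ATTTA in this transcript.

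The 30-base stretches richest in ATTTA are shown for 2 falling members that hold it, for the 2 rising members with the most copies and for PSMG1, so that their likeness can be seen. Each is read 5′ to 3′ on the transcript strand of the GRCh38 reference, as DNA letters, and the capitals mark ATTTA, overlapping copies included.
PSMD12: atatgaggtATTTAccaATTTAttttctta
PSMD5: aaactgtcatttcATTTAttggtaggtcat
PSMB2: tttttagATTTATTTATTTATTTAgagaca
PSMF1: atataATTTAcatacccataATTTAcatac
PSMG1: ttatcttATTTATTTATTTATTTAtttttt
The PSMD12 stretch lies at chr17:67338390-67338419 on the minus strand and the PSMD5 stretch at chr9:120816928-120816957 on the minus strand. PSMB2 (chr1:35602324-35602353, minus strand), PSMF1 (chr20:1167358-1167387, plus strand) and PSMG1 (chr21:39175302-39175331, minus strand) did not fall. A run of 4 overlapping copies is in PSMB2, whose slope was 0.097, and in PSMG1, which did not pass, while the PSMD5 stretch shows 1 copy. Over the whole 3′ UTR of the canonical transcript PSMD12 has 8 copies, PSMC6 3 and PSMD5 2. PSMF1 has 12, PSMB2 10 and PSMG1 6, so by annotation ATTTA stood on both sides. Which 3′ ends these cells use was not tested. At 0 h PSMB2 had 62.9 CPM per kilobase of transcript and 462 per kilobase of coding sequence, and PSMF1 13.3 and 133.

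Promoters were read from a RefSeq table (GRCh38.p14) that gave 53 promoters of 300 bases for 43 of the 49 members, from 250 bases before to 50 after the start. The letters TGANNNNGC are a loose form of the core of the antioxidant response element, to which the proteasome regulator NFE2L1 is known to bind. They were found on either strand in 60.4% of member promoters, 41.8% of all promoters and 42.3% of those of tested genes. The ETS core CCGGAAG was found in 32.1%, against 10.3% of all promoters and 17.0% of those of tested genes, and CCAAT in 41.5% against 34.6%. The 6 promoters of falling members, from 5 genes, held TGANNNNGC in 4 cases and the ETS core in 3. The 36 of rising members, from 27 genes, held them in 21 and 9. PSMG3 had no promoter listed, and promoters of the same gene can overlap, as for PSMA6. CCAAT was in 0 of the 6 and in 14 of the 36. A match is a description of letters and no measure of binding.

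Other genes of the ubiquitin-proteasome pathway were followed with a list of 27, all present and tested, of which 8 fell (29.6%) and 11 rose (40.7%), beside 32.1% and 30.7% of all genes. Scaled to GAPDH plus ACTB, 21 of them fell and none rose. UBB, a polyubiquitin gene, stood at 611, 565 and 599 CPM at 0 h and at 652, 516 and 452 CPM at 4 h, where the groups overlapped, and its slope was -0.034 (SE 0.0258, adjusted p = 0.269 with edgeR).

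Other genes of this list were split too. AKIRIN2, which brings proteasomes into the nucleus, went from 34.6, 34.7 and 35.6 CPM to 10.3, 8.61 and 4.71 CPM (slope -0.553, SE 0.0493, adjusted p = 8.20e-08 with edgeR). MIDN, which delivers proteins to the proteasome without ubiquitin, fell by 0.616 per hour (SE 0.0629, adjusted p = 3.51e-07 with edgeR) and was the 1 gene of the list already lower at 1 h without the block (it fell by 0.468 on the log2 scale, adjusted p = 0.00476 with edgeR). Both slopes were lower than that of any of the 46 members. MIDN departed from a straight line (adjusted p = 0.0001545 with edgeR), so 1 hourly rate describes it poorly. Its mean was 78.9 CPM at 0 h, 57.1 at 1 h, 20.4 at 2 h and 16.5 at 4 h. POMP, which completes the core, had a slope of 0.068 (SE 0.0153), and SEM1, the smallest lid subunit, listed under its older symbol SHFM1, of 0.114 (SE 0.0152), both inside the range of the members. The ubiquitin receptor ADRM1 did not pass (slope -0.0063, adjusted p = 0.804 with edgeR). NFE2L1, the transcription factor that drives proteasome genes when the particle is inhibited, rose by 0.079 (SE 0.0125), and DDI2, the protease that activates it, fell by 0.103 (SE 0.0317, adjusted p = 0.00934 with edgeR). Scaled to GAPDH plus ACTB, POMP, SEM1 and NFE2L1 had slopes below 0, and that of SEM1 did not pass (adjusted p = 0.345 with edgeR).

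**Figure D4:**
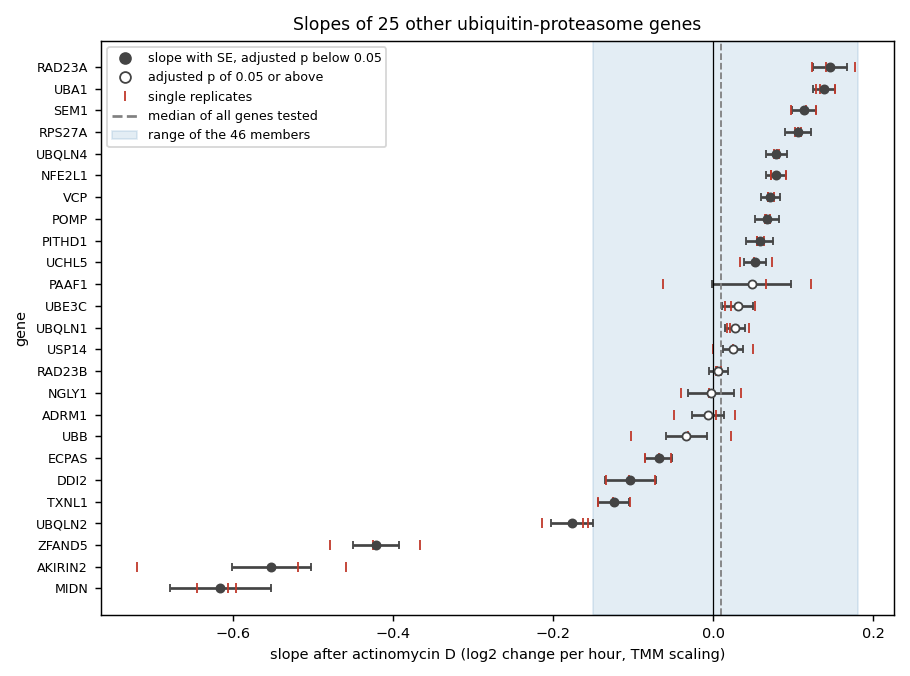
Slopes of 25 of the 27 other ubiquitin-proteasome genes (x axis, log2 change per hour, TMM scaling) with SE, ticks for the 3 single replicates, filled points for an adjusted p below 0.05 and a shaded band for the range of the 46 members. MIDN, AKIRIN2 and ZFAND5 lie left of the band, from -0.616 to -0.421, and UBQLN2 at -0.177 lies just outside it; scaled to GAPDH plus ACTB 21 of the 27 fell.

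Gene models that share sequence limit some of these values. Symbols of pseudogene copies were annotated for 17 of the 49 members, with 13 for PSMC1, 6 for PSME2 and 4 for PSMA6, and how the authors' counting treated reads that match both is not given in the sources used here, so these 3 levels are uncertain. PSMG3 has 2 such copies. Antisense genes with counts of their own were PSMA3-AS1, at 9.63% of PSMA3, and PSMG3-AS1, at 5.27% of PSMG3 with a slope of 0.0027 (adjusted p = 0.985 with edgeR).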

How the data were processed

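Poly(A) RNA of 12 shA673-1c libraries (4 times, 3 biological replicates) was sequenced with a stranded kit. Raw counts per gene symbol were used as deposited by the authors, whose processing notes per the labels name FastQC, STAR and hg19; versions, counter and annotation are not given in the sources used here. No normalization had been applied.

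The 12032 genes averaging 10 or more counts per library were scaled with TMM and fitted with edgeR 4.0.16 (R 4.3.3): a quasi-likelihood test of the slope on hours, of time as 4 groups, and of the departure from a line, with Benjamini-Hochberg adjustment over all genes and a threshold of 0.05. DESeq2 1.42.0, other scalings and filters, left-out replicates or times and a replicate block were alternatives. Partner ratios used a pseudocount of 0.5 and exact permutation tests. Replicate numbers paired the libraries: deviations of same-numbered libraries correlated in all 18 pairs (0.300 to 0.612), against -0.403 to 0.0842 for the 36 others. No replicates were duplicates (chi-square per degree of freedom 3.20 to 8.65). Genes named were, per family, the 2 highest and 2 lowest slopes, every falling member, the active-site and regulator genes and PSMD14, PSMD4, PSMD5, PSMD9 and PSMD10; others were named for single results after their values were seen. Members and lists were chosen with earlier results of these data known. The fit was tested on simulated data. Transcript features came from GENCODE 44 by symbol, on GRCh38, a build other than the authors' hg19. Values of some listed genes and 1 site sequence are not reported here.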

Additional observations from a re-analysis of the deposited data

How the results depend on the processing

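The numbers of members that fell and rose over time were 6 and 32 with TMM. They were 10 and 21 with library totals, 26 and 0 with GAPDH plus ACTB, and 0 and 16 without the 4 h libraries. At 4 h, 17 members were higher with library totals, and 27 were lower and 0 higher with GAPDH plus ACTB. At 1 h, 3 were lower and 2 higher with the replicate block, and 8 departed from a straight line (1 in DESeq2). The replicate block brought PSMA5 and PSME4 past the threshold over time and changed no other call of a member's slope, and at 4 h it gave 33 higher and 6 lower members. Of the other ubiquitin-proteasome genes, 14 rose with the block, 21 fell and 0 rose with GAPDH plus ACTB, and 4 fell and 6 rose without the 4 h libraries.

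The median member slope of 0.078 was 0.0393 with library totals, -0.0598 with GAPDH plus ACTB and 0.083 without the 0 h libraries. It was 0.0782 without the 4 h libraries, and 0.0703 to 0.0789 when 1 replicate was left out. Leaving out 1 replicate gave 4 to 6 falling and 27 to 30 rising members over time, 5 to 6 lower and 24 to 29 higher at 4 h, and 0 at 1 h and for the departure. The other ubiquitin-proteasome genes then had 8 falling in each case and 10 to 11 rising. The PSMD and regulator medians were -0.0113 and -0.00514 with library totals. With GAPDH plus ACTB the family medians were -0.058 for PSMA, -0.0254 for PSMB, -0.0741 for PSMC, -0.111 for PSMD and -0.104 for the regulators. The median 0 h level of 75.7 CPM per kilobase of transcript was 158 per kilobase of coding sequence, an alternative chosen after seeing the data, as was leaving out PSMC3IP.

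Slopes above 0 with TMM that lay below 0 with GAPDH plus ACTB were PSMA1 -0.0697, PSMA2 -0.0575, PSMA3 -0.061, PSMA4 -0.0539, PSMA5 -0.11, PSMA6 -0.058, PSMA7 -0.0319, PSMB1 -0.0814, PSMB2 -0.0414, PSMB3 -0.0254, PSMB4 -0.0237, PSMB5 -0.0453, PSMB6 -0.0209, PSMB7 -0.0291, PSMC1 -0.0741, PSMC2 -0.0948, PSMC3 -0.0262, PSMC3IP -0.0793, PSMC4 -0.0268, PSMC5 -0.0427, PSMD1 -0.1004, PSMD10 -0.123, PSMD13 -0.0382, PSMD14 -0.121, PSMD2 -0.0274, PSMD3 -0.0585, PSMD4 -0.0712, PSMD8 -0.00244, PSMD9 -0.042, PSME1 -0.00665, PSME2 -0.0289, PSME3 -0.0831, PSME4 -0.104, PSMF1 -0.0527, POMP -0.07002, NFE2L1 -0.0596, SEM1 -0.0244 and ACTB -0.0167, in log2 units per hour. With library totals those of PSMA5 -0.0106, PSMD1 -0.000784, PSMD10 -0.0238, PSMD14 -0.0219 and PSME4 -0.00514 lay below 0. Without the 4 h libraries the sign turned for PSMB8 -0.00819, PSMD10 -0.0100, PSMD11 0.0454, PSMD6 0.00734, PSMD7 0.0172, PSMG1 0.0316, ADRM1 0.0403, DDI2 0.00806 and UBB 0.0556, and without replicate 1 for ADRM1 at 0.0156 (-0.0233 without replicate 2). The ratio slope of PSMG1 to PSMG2 was 0.0744 without the 4 h libraries, where it no longer passed, and 0.0742 to 0.116 when 1 replicate was left out. That of PSMG3 to PSMG4 was 0.0318 without the 4 h libraries and -0.0628 to 0.0416 over the replicates left out, with 0.0416 without replicate 2. The ratio slopes of PSMB8 to PSMB5 and PSMB10 to PSMB7 were -0.0979 and -0.0804 without the 4 h libraries, 0.0719 to 0.103 and 0.00522 to 0.0851 over the replicates left out, and PSME2 to PSME1 ranged from -0.032 to -0.0132. Apart from PSMG1 to PSMG2 without the 4 h libraries, no ratio passed or lost the threshold in the settings run, and the cause of these changes was not tested. A planned exclusion of pseudogene-form symbols found none, and PSMB9 to PSMB6 could not be tested for want of counts. In simulated data 17 of 65 slopes of 0.1 were recovered. The simulation gave every gene the same relative spread and changed few genes, unlike these data. This share therefore does not carry over, and how often slopes of this size are missed here was not measured.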
